A study of Mus musculus with 2 samples.

Results

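The wild-type cells of a single-cell RNA-seq series on LIN28 in mouse ES cells were described, to show what their baseline transcriptome holds and which genes vary from cell to cell. The cells were ES cells derived from the inner cell mass, labelled untreated, kept on gelatin with mouse embryonic fibroblast (MEF) feeders in LIF/2i medium for 2 days. In the study they are the clone a2.1, a wild-type clone taken through transfection, and ES cells there are of the E14 line unless another is named, so the library stands for 1 clone. They were captured with inDrop, in which droplets carry barcoded primers and each captured transcript receives a unique molecular identifier (UMI). The deposited values are unnormalised UMI numbers for each gene in each barcode. A UMI is meant to stand for 1 captured molecule whatever the transcript length. For genes that share sequence this was not tested. The wild-type condition has 1 library, so no test between cultures was possible and every interval here (exact Poisson or exact binomial, 95%) covers counting error only. Barcodes are serial numbers in the deposited table, so barcodes shared with the other library could not be counted.

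The ES cells were chosen by 4 measured values of each barcode, namely at least 2000 UMIs, a mitochondrial share of 0.5 to 20%, a ribosomal protein (RP) share of 5 to 15% and a summed share of Col1a1, Col1a2 and Col3a1 under 0.3%. This left 1354 of 4329 wild-type barcodes (31.28%, interval 29.9 to 32.68%), of 10389 barcodes in both libraries, and 82.46% of the 1642 wild-type barcodes that reached 2000 UMIs. The kept cells held 9115797 UMIs, 75.46% of the library. A cell had 2010 UMIs at the lowest, 6333 at the median and 27958 at the highest, and the median cell had 3052.5 genes. The mitochondrial share had a median of 1.487% and the RP share of 8.684%. Among the deep barcodes 239 fell below the mitochondrial limit, 8 lay below and 139 above the RP limits (131 of the latter also below the mitochondrial limit) and 42 were rich in collagen RNA. The values nearest the limits were 1913 and 2010 UMIs, 0.49734% and 0.50077% mitochondrial UMIs, 2.9971% and 5.1136% and then 14.645% and 15.016% RP UMIs, and 0.12638% and 0.33317% collagen UMIs.

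Mouse ES cells hold a pluripotent state through a network of transcription factors around Pou5f1, Sox2 and Nanog. In medium with LIF and inhibitors of MEK and GSK3 they resemble the naive epiblast before implantation, with Zfp42 (Rex1), Klf4 and Tfcp2l1 expressed and factors of the primed epiblast low. They divide quickly with a short G1 phase, so that a large part of a culture is in S phase at any time.

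The markers of ES cells, which did not enter the selection, were high in the kept cells. Pou5f1 stood at 828.8 CPM (counts per 1000000 UMIs, interval 810.2 to 847.7) and Zfp42 at 796.3 CPM. Nanog stood at 309.6 CPM (298.3 to 321.2) and Sox2 at 166.3 CPM (158.0 to 174.9). With every cell taken at 2000 UMIs, 80.0% of cells had a Pou5f1 UMI, 76.58% one of Zfp42, 44.24% one of Nanog and 27.79% one of Sox2. The same shares were taken in 30 collagen-rich barcodes of the library (at least 1% collagen UMIs, median 9443 UMIs), which should lack these genes. They were 1.275%, 0.5603%, 3.286% and 0%. The count of 0 for Sox2 there allows up to 9.447 CPM by the limit of 3 counts, and up to 11.62 CPM by the exact Poisson interval. At full depth 670 cells (49.48%) had UMIs of all 4 genes, 523 had 3 of them, and 1 cell, with 2814 UMIs, had 0.

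Defining markers of other cell types were low beside those of ES cells. Otx2 and Fgf5, of the primed epiblast, had 2.194 and 0.5485 CPM. Gata6 and Sox17, of primitive endoderm, had 0.5485 and 1.207 CPM, and Cdx2 and Hand1, of trophoblast, 1.207 and 0 CPM. Among the markers chosen for these types the highest was Lama1, a laminin gene of primitive endoderm, at 15.03 CPM with a UMI in 130 cells. Pou3f1, of the primed epiblast, followed at 10.42 CPM in 85 cells. Some genes of the wider lists for these types, given below, were higher. Of 20 genes of the 2-cell programme 12 had 0 UMIs and all 20 together had 3.51 CPM, with Zscan4d at 0 UMIs. A count of 0 allows up to 0.3291 CPM at this depth by the limit of 3 counts, and up to 0.4047 CPM by the exact Poisson interval. The feeder gene list summed to 363 CPM over 22 genes, a level that the selection itself limits, since the 3 collagen genes of the rule are among them. Pou5f1, which the rule did not use, had 3.149 CPM in the collagen-rich barcodes. By the ES cell markers above the kept barcodes were called ES cells.

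**Figure D1:**
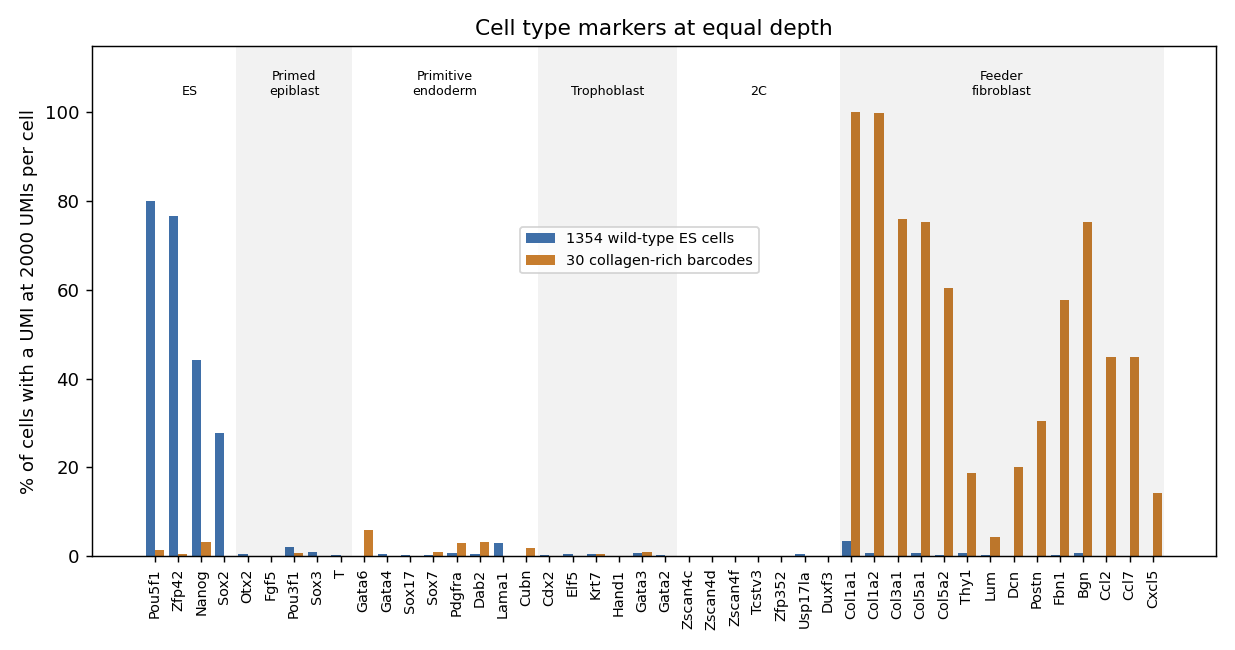
Share of cells (%) with at least 1 UMI of each cell type marker when every cell is taken at 2000 UMIs. Blue bars are the 1354 wild-type ES cells and orange bars the 30 collagen-rich barcodes of the same library. Pou5f1 reached 80.0% in the ES cells and 1.275% in the collagen-rich barcodes. Of the markers of other types shown, the highest in the ES cells were Col1a1 (3.403%), which the selection limits, Lama1 (2.987%) and Pou3f1 (2.163%).

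Other genes of the pluripotency network were found over a wide range of levels. Dppa5a, which encodes an RNA-binding protein of the naive state, had the highest level of the core list at 1032 CPM. Mkrn1 stood at 651.2 CPM and Rif1, a telomere and replication timing factor, at 513.3 CPM. Trim28, a corepressor of retroviral elements, stood at 430.2 CPM and L1td1 at 283.4 CPM. Lin28a, the RNA-binding protein the series is about, stood at 120.2 CPM with 0 to 7 UMIs a cell and a median of 1. Dppa4 had the lowest level of the 18 core genes at 44.1 CPM. The naive list was led, beside Zfp42, by the Krüppel-like factors Klf4 at 607.4 CPM and Klf5 at 551.6 CPM, with Klf2 at 213.6 CPM. Tbx3 stood at 320.4 CPM, Tfcp2l1 at 282.4 CPM, Stat3 at 241.3 CPM and Esrrb at 233.1 CPM. The naive list summed to 3798 CPM over 15 genes and the primed list to 267.4 CPM over 20 genes, in which Dnmt3b (81.51 CPM) and Nodal (46.18 CPM) were among the 5 that reached 200 UMIs. Of the primitive endoderm list 3 genes reached 200 UMIs, Fn1 at 414.6 CPM, Sparc at 249.9 CPM and Lamc1 at 112.0 CPM, all genes of the extracellular matrix that other cell types use too.

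Over all genes the transcriptome was spread widely. The 20 most abundant genes held 9.389% of the UMIs (interval 9.37 to 9.408%) and the 100 most abundant 22.06%. By annotation 71.52% of UMIs fell on protein coding genes outside the RP and mitochondrial sets, 12.11% on pseudogenes, 8.905% on RP genes, 2.86% on lincRNAs and 1.575% on mitochondrial genes. The pseudogene share ran from 7.788% to 18.04% over cells.

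Gm42418 was the most abundant gene at 14270 CPM (interval 14190 to 14350), from 16 to 582 UMIs a cell with a median of 92. It is an annotated lincRNA on chromosome 17, 39846958 to 39848788 on the plus strand of GRCm38, and an rRNA gene, CT010467.1 (1387 CPM), covers all of its 1831 bases on the opposite strand. Whether the authors' counting used strand is not given in the sources used here, so UMIs of the overlapping genes cannot be told apart. Eef1a1, the elongation factor that delivers aminoacyl-tRNA to the ribosome, followed at 10380 CPM with a median of 64 UMIs a cell. Gm26377 (2836 CPM), annotated as a miRNA of 108 bases, lies within Eef1a1 on the same strand and shares all of its 31-base words with it, so its UMIs cannot be told apart from those of Eef1a1.

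The other leading genes are known for growth, protein folding and the cytoskeleton. Ptma, the chromatin-associated prothymosin alpha, stood at 6709 CPM. The chaperones Hsp90ab1 and Hsp90aa1 stood at 5370 and 5070 CPM, and beta-actin (Actb) at 5263 CPM. Rplp1, a protein of the ribosomal stalk whose symbol the RP rule does not take, stood at 4219 CPM and the nuclear RNA Malat1 at 4201 CPM. The nucleolar proteins nucleophosmin (Npm1, 4119 CPM) and nucleolin (Ncl, 2713 CPM) were also among the 20. Gapdh stood at 3675 CPM, profilin (Pfn1) at 3573 CPM, the poly(A)-binding protein Pabpc1 at 3253 CPM and cyclophilin A (Ppia) at 2953 CPM. The other genes of the 20 included Ftl1-ps1 (3611 CPM), Gm3839 (3422 CPM) and Rps2-ps10 (2751 CPM). Beside Gm26377, 5 of the 20 share most of their 31-base words with further genes, Rps2-ps10 (97.22%), Rplp1 (75.05%), Ftl1-ps1 (74.06%), Gm3839 (67.84%) and Hsp90aa1 (51.43%), so their levels are uncertain, and Eef1a1 shares 49.77%. Rpl27a (2740 CPM) was the RP gene among them, and Serbp1 (2629 CPM) took its place when mitochondrial and RP genes were left out.

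**Figure D2:**
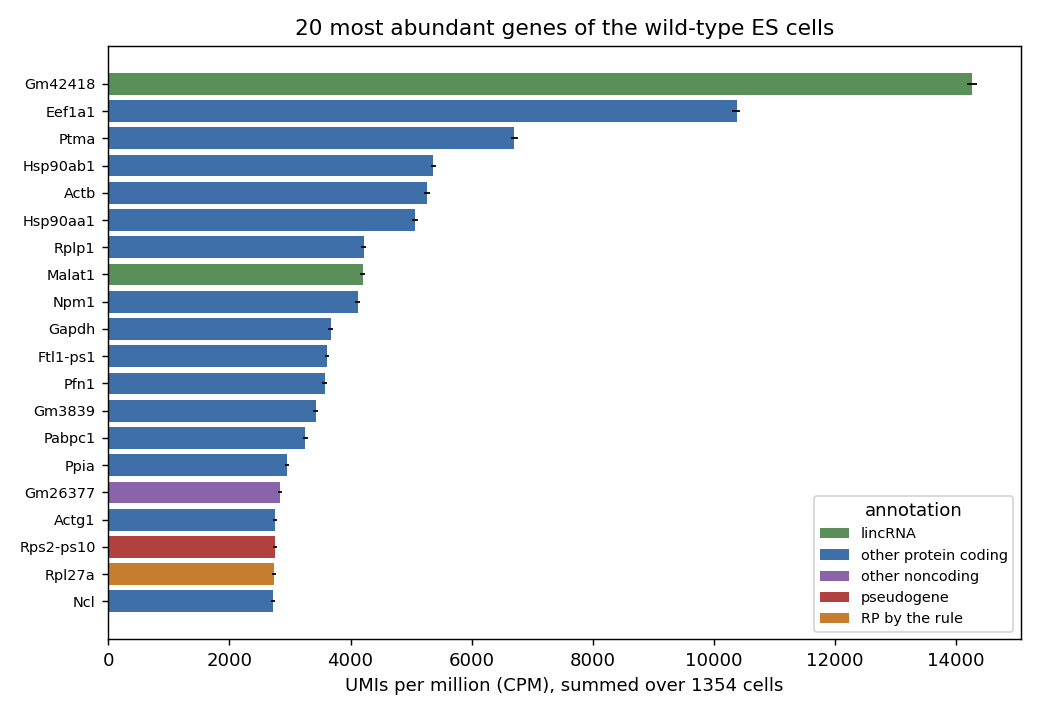
Level of the 20 most abundant genes in CPM, summed over the 1354 wild-type ES cells, coloured by annotation, with exact Poisson 95% intervals as black bars. Gm42418 (14270 CPM) and Eef1a1 (10380 CPM) led, and the other 18 lay between 2713 and 6709 CPM.

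Spread between cells was measured by the variance ratio, the squared deviation of a gene's UMIs from the number its share of UMIs predicts at each cell's depth, divided by the variance that Poisson sampling gives. Poisson sampling alone gives 1. Beside it stands the excess CV, the coefficient of variation between cells left after the Poisson part is taken out. Of 6398 genes with at least 200 UMIs, mitochondrial, RP and the 3 collagen genes left out, 189 had a ratio of at least 1.5 (2.95%), and the median ratio was 1.088. The ratio rises with level at a given excess CV: 0.397% of genes with 200 to 500 UMIs passed 1.5, 1.62% of those with 1000 to 2000, 9.93% of those with 2000 to 5000 and 51.6% of those with at least 5000. The counts given for gene lists are to be read against these shares. An excess CV of at least 0.5 was found for 1934 genes (30.2%). In 303 genes (4.74%) the ratio was at most 0.8, a limit set after the values were seen.

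**Figure D3:**
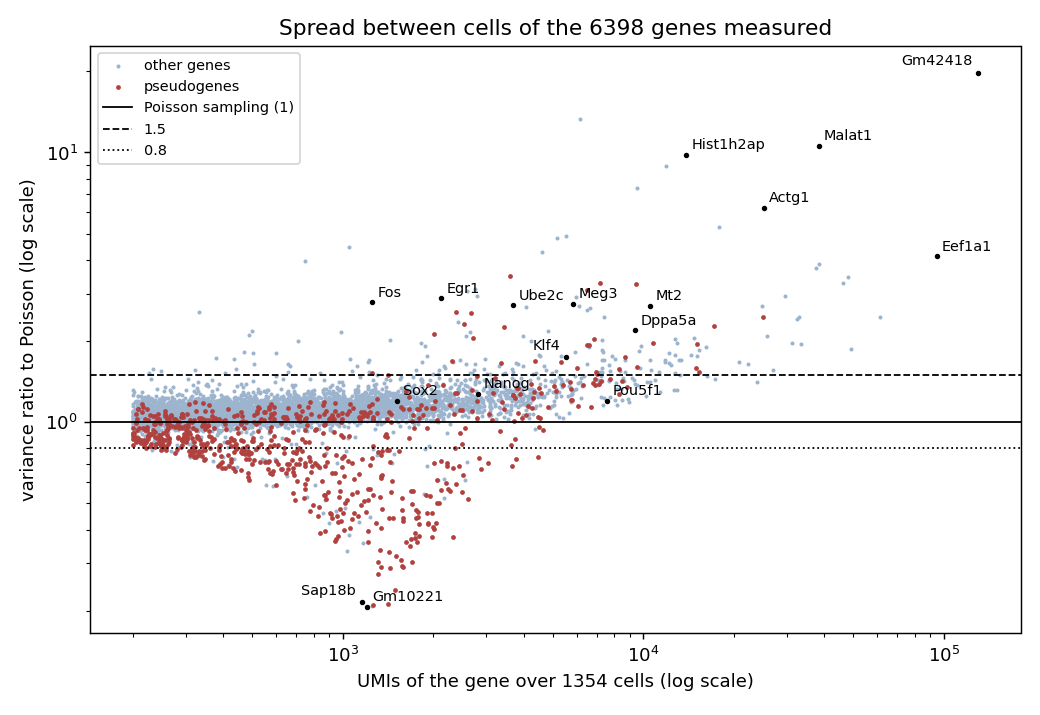
Variance ratio against UMIs of the gene over the 1354 wild-type ES cells, both on log scales, for the 6398 genes measured (pseudogenes in red), with lines at Poisson sampling (1) and at ratios of 1.5 and 0.8. Gm42418 (19.77), Malat1 (10.58) and Hist1h2ap (9.797) lay far above the line, Pou5f1 (1.201) and Sox2 (1.2) close to it, and 250 pseudogenes at or below 0.8.

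Replication-dependent histone genes, which supply nucleosomes to newly made DNA in S phase, had the largest share of variable members and the highest median ratio of the 31 lists examined. Of 20 measured genes 14 had a ratio of at least 1.5 (2.95% over all genes), with a median ratio of 2.459 against 1.088 over all genes. Hist1h2ap, Hist1h2ad, Hist1h2ab, Hist1h2ae and Hist1h2af lay at a level where 51.6% of all genes pass. Hist1h2ah, Hist1h2ai and Hist1h2ac lay where 9.93% do. Hist1h2ap had 0 UMIs at the 10th percentile of cells, 8 at the median, 24 at the 90th and 70 at the highest, with a ratio of 9.797 and an excess CV of 0.861. Hist1h2ad (ratio 8.918) and Hist1h2ab (7.372) came next, followed by Hist1h2ae (4.906), Hist1h2af (4.83), Hist1h2ah (4.275), Hist1h2ai (3.111) and Hist1h2ac (3.077), and the linker histone gene Hist1h1b had a ratio of 1.647 and an excess CV of 1.072, with a ratio of 1.246 when cells were thinned to 2000 UMIs. The H2A genes share much of their sequence: 93.36% of the 31-base words of Hist1h2ap occur in other genes, 68.27% of those of Hist1h2ad and 62.98% of those of Hist1h2ab. How UMIs were divided among them is therefore uncertain. Whether a UMI could be counted for several of them was not tested, so the sum over the list is uncertain too. Histone mRNAs of this kind bear a stem-loop, and how the barcoded primers captured them was not tested. The values therefore describe captured UMIs and may not follow the mRNA levels. The 69 histone genes together had 274.9 CPM at the 10th percentile of cells, 6337 CPM at the median and 18490 CPM at the 90th, with a ratio of 49.4 for the summed count.

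The likeness of the H2A genes is seen in the start of their coding sequences (GENCODE M21, GRCm38, bases 1 to 120 from the start codon), shown because the histone list had the highest median ratio of the lists. Hist1h2ap lies at chr13:21833356-21833475 on the minus strand and Hist1h2ab at chr13:23751133-23751252 on the plus strand, with capitals at the 5 bases where the 2 stretches differ. Over the whole coding part 382 of 390 bases were identical (97.95%), and 387 of 390 between Hist1h2ap and Hist1h2ad.
Hist1h2ap: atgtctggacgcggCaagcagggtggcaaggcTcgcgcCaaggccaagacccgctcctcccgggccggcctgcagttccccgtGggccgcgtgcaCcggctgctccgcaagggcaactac
Hist1h2ab: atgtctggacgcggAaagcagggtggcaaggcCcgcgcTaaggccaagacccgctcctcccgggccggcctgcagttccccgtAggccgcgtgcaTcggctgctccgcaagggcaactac

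As a sum, the genes of G2 and mitosis moved against the histone list over cells (r of -0.522). Of 33 measured members 4 had a ratio of at least 1.5, beside 2.95% over all genes measured. Of these Ube2c (3694 UMIs) and Arl6ip1 (4804) lay at a level where 9.93% of all genes pass, Cenpf (1827) where 1.62% do and Top2a (5337) where 51.6% do. Ube2c, the ubiquitin-conjugating enzyme of the anaphase-promoting complex, had 0 to 29 UMIs a cell with a median of 2 (405.2 CPM, ratio 2.709). Arl6ip1 (527.0 CPM) had a ratio of 2.172, Cenpf, a kinetochore protein, 1.965 and Top2a, the topoisomerase that disentangles chromosomes, 1.757. Among genes outside the list Pttg1 (securin), the anaphase inhibitor, had 78.0 CPM, a ratio of 2.008 (1.378 thinned to 2000 UMIs) and an excess CV of 1.288. In the S phase list 1 of 21 members passed, the replication clamp gene Pcna (650.6 CPM, 0 to 34 UMIs, ratio 1.823), and Slbp, which binds the stem-loop of histone mRNAs, had a ratio of 1.441.

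Over the 1354 cells of this library the summed histone and G2/mitosis residuals, scaled for depth, had a Pearson r of -0.522, and Hist1h2ap and Ube2c one of -0.38 (-0.417 in the 863 cells of 5000 to 10000 UMIs). The S phase list had an r of 0.184 with the histone list and of -0.195 with the G2/mitosis list. In the 280 cells (20.7%, interval 18.6 to 22.9%) with under 1000 CPM of histone UMIs the G2/mitosis genes had a median of 6617 CPM, and in the 463 cells (34.2%, interval 31.7 to 36.8%) with at least 10000 CPM a median of 3874 CPM. Their median depths were 6140 and 6255 UMIs. The S phase list ran the other way and less steeply, with medians of 3767 and 4280 CPM in these cells. Depth moved with these lists, with an r of 0.255 between the G2/mitosis list and the UMIs of a cell and of -0.151 for the histone list. The histone list also had an r of -0.222 with the mitochondrial share and of 0.193 with the RP share, against 0.0747 and -0.111 for the G2/mitosis list. The part of depth and of these shares was not tested.

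**Figure D4:**
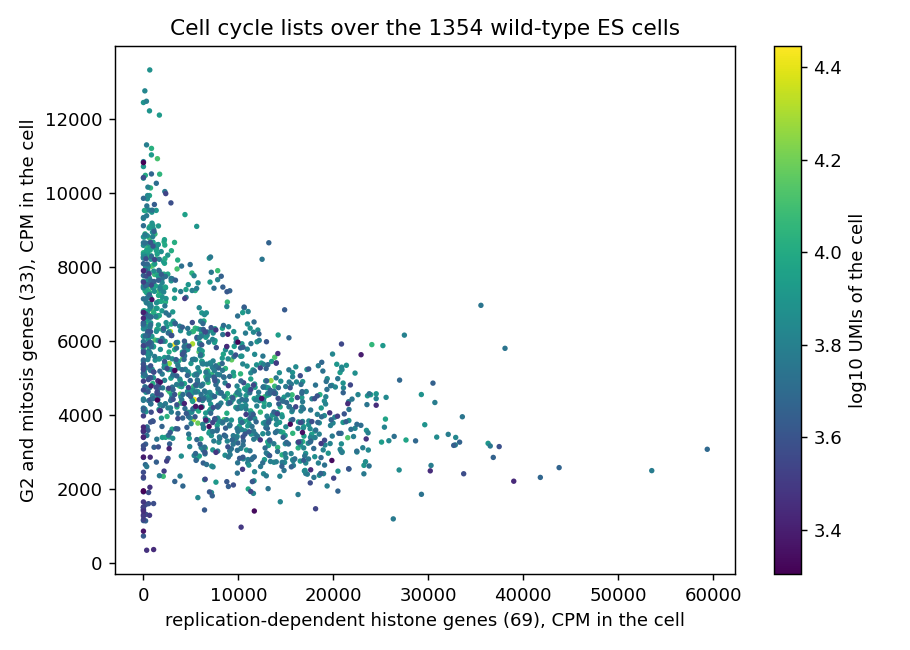
Summed level of 33 G2 and mitosis genes against that of 69 replication-dependent histone genes, both as CPM within a cell, for each of the 1354 wild-type ES cells (points), coloured by the log10 of the cell's UMIs. Cells with under 1000 CPM of histone UMIs had a median of 6617 CPM for G2 and mitosis genes, and those with at least 10000 CPM a median of 3874 CPM.

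Among protein coding genes with under 10% of their 31-base words in another gene, a set chosen after the values were seen, 66 of 4621 had a ratio of at least 1.5 (1.43%), and immediate early genes led it. These genes are transcribed within minutes of growth factor signalling or of stress, without new protein synthesis. Egr1 (233.0 CPM), a zinc finger transcription factor, had 0 UMIs in 573 cells where Poisson sampling gives 328.5, and up to 23 in a cell (ratio 2.888). Under the limits of the study's methods alone (at least 500 UMIs and at most 20% mitochondrial UMIs, 1856 cells) its ratio was 4.846 and that of Fos 5.398. With cells thinned to 2000 UMIs the ratio of Egr1 was 1.528. Fos (137.6 CPM), a subunit of AP-1, had 0 UMIs in 769 cells where 568.0 are given by Poisson sampling, and up to 15 (ratio 2.786, excess CV 1.291, and a ratio of 1.401 with cells thinned to 2000 UMIs). Dusp1, a phosphatase that turns off MAP kinases, had a ratio of 1.701, Btg2 of 1.577 and Jun of 1.517. These 5 of 12 measured members passed 1.5, beside 2.95% over all genes, and Ier2 (278.9 CPM), which was more abundant, had a ratio of 1.305. Fos and Egr1 had an r of 0.315 over cells (0.317 at 5000 to 10000 UMIs) and Fos and Dusp1 one of 0.212 (0.192). The r of Fos with depth was -0.043, with the RP share 0.000497 and with the feeder genes 0.0203. In the collagen-rich barcodes Fos stood at 733.7 CPM and Egr1 at 1017 CPM, above their levels in the ES cells.

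The 250 bases before the RefSeq start of Fos and of Dusp1 (GRCm38.p6), shown because both genes varied between cells, hold 2 and 3 matches to TGACG on either strand, the core letters of the site of CREB and ATF factors. They lie at chr12:85473640-85473889 on the plus strand and chr17:26508473-26508722 on the minus strand, with the matches in capitals, the overlapping ones of Dusp1 joined. Of 32851 windows of this length 17.8% hold a match, 3.9% at least 2 and 0.688% at least 3. A match is a run of letters and not a shown site.
Fos: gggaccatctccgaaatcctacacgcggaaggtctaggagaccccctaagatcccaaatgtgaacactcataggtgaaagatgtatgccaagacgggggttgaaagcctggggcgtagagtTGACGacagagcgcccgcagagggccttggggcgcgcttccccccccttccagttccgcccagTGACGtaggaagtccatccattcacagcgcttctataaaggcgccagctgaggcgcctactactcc
Dusp1: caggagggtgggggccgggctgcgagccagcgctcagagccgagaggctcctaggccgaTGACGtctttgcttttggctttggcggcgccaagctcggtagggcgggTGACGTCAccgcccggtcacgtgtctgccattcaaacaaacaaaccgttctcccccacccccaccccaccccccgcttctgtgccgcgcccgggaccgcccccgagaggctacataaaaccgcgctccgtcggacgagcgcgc

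Targets of p53, which respond to DNA damage and other stress, had 4 of 11 measured members at 1.5 or above, beside 2.95% over all genes. Cdkn1a, the inhibitor of cyclin-dependent kinases, stood at 206.0 CPM with 0 to 11 UMIs a cell and a ratio of 1.92. Plk2 had a ratio of 1.718, the p53 ubiquitin ligase Mdm2 one of 1.613, and Btg2, which is in the immediate early list too, 1.577. Trp53inp1 lay just under the limit at 1.49. Cdkn1a and Mdm2 had an r of 0.166 over cells (0.124 at 5000 to 10000 UMIs), and Cdkn1a and Trp53inp1 one of 0.12 (0.119). Cdkn1a was higher at lower depth (r of -0.174 with log10 UMIs), and its level in the collagen-rich barcodes was 2648 CPM. Their part was not tested.

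The metallothionein genes, for small cysteine-rich proteins that bind zinc and copper, tended to be high in the same cells. Mt2 had 2 UMIs at the 10th percentile of cells, 7 at the median, 15 at the 90th and 46 at the highest (1153 CPM, ratio 2.705). Mt1 had a median of 5 and a highest value of 30 (809.4 CPM, ratio 2.453). The r of these genes was 0.516 over all cells and 0.548 at 5000 to 10000 UMIs, and they share 0% of Mt1's and 0.52% of Mt2's 31-base words with any other gene, so the sequences of the pair are distinct. Mt2 moved with the RP share of the cell (r of 0.367), and so did Mt1 (0.304), and their r with the mitochondrial share was -0.218 and -0.179. In the redox list 4 of 21 measured genes passed, beside 2.95% over all genes, the others being Txn1 (1.695) and Prdx1 (1.532). Of these Mt2 (10507 UMIs), Mt1 (7378) and Txn1 (7394) lay at a level where 51.6% of all genes pass.

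Pluripotency factors differed in their spread. In the core list 4 of 18 measured genes had a ratio of at least 1.5 and in the naive list 2 of 13, beside 2.95% over all genes. Of those that passed Dppa5a (9406 UMIs), Zfp42 (7259) and Klf4 (5537) lay at a level where 51.6% of all genes pass, Rif1 (4679) where 9.93% do and Dnmt3l (468) where 0.397% do. Dppa5a had 2 UMIs at the 10th percentile, 6 at the median, 13 at the 90th and 31 at the highest (ratio 2.195). It moved with the RP share (r of 0.498) and shares 57.22% of its 31-base words with other genes. Klf4 had 1, 3, 8 and 34 UMIs at the same points (ratio 1.738, excess CV 0.3948), and Zfp42 1, 5, 10 and 33 (ratio 1.53, excess CV 0.2923). Dnmt3l, the cofactor of de novo DNA methylation, was scarce at 51.34 CPM but reached 8 UMIs in a cell (ratio 1.828, excess CV 1.439), and Rif1 had a ratio of 1.613. Tet1, which oxidises methylated cytosine, had 482.2 CPM and a ratio of 1.525, while Dnmt1 (172.0 CPM) had 1.054.

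The 3 factors at the centre of the network had variance ratios under 1.5. Both measures depend on level, and the median excess CV over all genes was 0.3306 at 1000 to 2000 UMIs, where Sox2 lies, 0.29 at 2000 to 5000, where Nanog lies, and 0.2626 at 5000 or more, where Pou5f1, Klf4 and Zfp42 lie. Pou5f1 had 2 UMIs at the 10th percentile, 5 at the median and 10 at the 90th, with a ratio of 1.201 and an excess CV of 0.1766. It was at 0 in 26 cells where Poisson sampling gives 20.79. Nanog had a median of 2 UMIs, a ratio of 1.276 and an excess CV of 0.3384, and Sox2 a median of 1, 1.2 and 0.3932. Pairwise links were weak: the r over cells was -0.0577 for Pou5f1 and Zfp42, -0.041 for Pou5f1 and Sox2 and 0.163 for Nanog and Zfp42, and at these counts a weak r is no finding. The r with the RP share was 0.277 for Pou5f1, -0.248 for Nanog, -0.0835 for Sox2 and, beside them, -0.252 for Zfp42. None of the 5 primed genes, the 3 primitive endoderm genes or the 1 trophoblast gene measured had a ratio of at least 1.5, and with 2.95% over all genes nothing is read from so few genes.

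The list of nuclear noncoding RNAs had 3 of 12 measured genes at a ratio of at least 1.5, Malat1, Meg3 and Kcnq1ot1, beside 2.95% over all genes. Malat1 (38299 UMIs) and Meg3 lay at a level where 51.6% of all genes pass, and Kcnq1ot1 where 9.93% do. The list had a median ratio of 1.15 against 1.088. Malat1 had 7.3 UMIs at the 10th percentile of cells, 24 at the median, 55 at the 90th and 133 at the highest (ratio 10.58). Under the limits of the study's methods alone its ratio was 56.47, and with cells thinned to 2000 UMIs 4.125. Meg3, the maternally expressed RNA of the Dlk1-Dio3 domain (640.9 CPM), had a ratio of 2.753, and its neighbour Rian 1.668. Kcnq1ot1, the antisense RNA of the Kcnq1 imprinted domain (448.1 CPM), had a ratio of 2.684. Impact, a protein coding gene of the imprinted list, had 1.775. The gene most like Malat1 over cells was Saa3, a serum amyloid A gene, at 263.4 CPM with up to 14 UMIs in a cell. Their r was 0.695 over the 1354 cells and 0.686 at 5000 to 10000 UMIs, and Saa3 shares 7.44% of its 31-base words with other genes. Malat1 was lower in cells with a higher RP share (r of -0.407), and so was Saa3 (-0.258), while their r with the mitochondrial share was 0.229 and 0.17 and with the feeder gene list -0.105 and -0.0825. The part of these shares, which entered the selection of cells, was not tested. In the collagen-rich barcodes Malat1 stood at 22410 CPM and Saa3 at 1918 CPM. On the opposite strand Gm37376 (622.7 CPM) overlaps 453 bases of Malat1, and UMIs of that stretch cannot be told apart.

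The largest ratios outside the lists belonged to 2 annotated lincRNAs. Gm42418, which overlaps the rRNA gene, had 19.77, with 40.39 under the limits of the methods alone and 6.35 with cells thinned to 2000 UMIs. It moved with depth (r of -0.312 with log10 UMIs), with the mitochondrial share (0.215) and with the RP share (-0.263). The genes with the largest r beside it were Lars2 (0.28) and Gm29216 (0.266). Gm29216 had exactly 1 UMI in 1264 cells, so its residual is set mostly by the depth of the cell. The part of depth in that r was not tested. Gm26870, on chromosome 9, reached 156 UMIs in a cell against a median of 2 (ratio 13.28, and 21.1 under the limits of the methods alone), and its r was 0.215 with the mitochondrial share and -0.244 with the RP share. Rplp1, the stalk protein gene, had 3.867, with 7.221 under the limits of the methods alone and 1.791 with cells thinned to 2000 UMIs.

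Housekeeping lists differed in how many members passed 1.5, beside 2.95% over all genes. Hsp90aa1, Hnrnpu, Srsf2, Npm1, Ncl and Eef1a1, named below, each had at least 5000 UMIs, a level where 51.6% of all genes pass. Ndufa4 (4521 UMIs) lay where 9.93% do. In the heat shock and chaperone list 5 of 20 genes passed, led by Hsp90aa1 (ratio 3.286). In the splicing list 5 of 30 passed, led by Hnrnpu (1.842) and Srsf2 (1.761), and in the nucleolar list 2 of 30, Npm1 (3.716) and Ncl (2.689), both among the most abundant genes. Of 40 translation factors 4 passed, with Eef1a1 at 4.117 and an excess CV of 0.1963. In the oxidative phosphorylation list 1 of 82 passed, Ndufa4 (1.76), and in the proteasome and cholesterol synthesis lists 0 of 35 and 0 of 17. A count of 0 does not mark a steady list, since the cholesterol synthesis genes had a median excess CV of 0.5575 against 0.3841 over all genes, and the summed counts of these 3 lists had ratios of 3.75, 1.869 and 2.205. The oxidative phosphorylation list moved with the RP share (r of 0.627) and the nucleolar list against it (r of -0.413). The RP share entered the selection of cells and its part was not tested. Actg1, gamma-actin, stood out among cytoskeletal genes at 2759 CPM with a ratio of 6.243, but 40.24% of its 31-base words occur in other genes.

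Genes that varied less than Poisson sampling allows were mostly copies of other genes. Of the 303 genes with a ratio of at most 0.8, 250 were pseudogenes (82.5%), against 7.43% of the 5906 genes between 0.8 and 1.5. Their median share of 31-base words found in another gene was 80.1%, against 1.23%. Among measured pseudogenes 34.77% had such a ratio and among protein coding genes 0.7305%, and in the 4621 protein coding genes with under 10% shared there was 1.

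The lowest ratio belonged to Gm10221 (0.2073, 131.7 CPM), a processed pseudogene on chromosome 5. It had exactly 1 UMI in 1167 of 1354 cells, where Poisson sampling gives 463.2, and 0 in 170, where it gives 588.1. Its transcript of 309 bases was found whole and without a difference in that of Atp5l, a subunit gene of ATP synthase (620.1 CPM, ratio 1.357). Of the 1184 cells with a Gm10221 UMI 1183 had an Atp5l UMI, and of the 78 cells without Atp5l 77 had none of Gm10221. A further 93 cells had Atp5l without Gm10221, and 17 cells had 2 UMIs of the copy.

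Sap18b showed a like pattern beside Sap18, a gene of histone deacetylase complexes. Sap18b had exactly 1 UMI in 1152 cells and 2 or more in 1 (ratio 0.2159), while Sap18 had a median of 2 UMIs and up to 13 (385.8 CPM, ratio 1.263). All 1153 cells with Sap18b had Sap18, and of the 201 cells without it 182 had no Sap18 either and 19 had Sap18 alone. The 516 coding bases of Sap18b were all identical to Sap18. Gm10131, a copy of Erh, had exactly 1 UMI in 966 of the 999 cells that had it, and all 999 had an Erh UMI. Among the 20 genes with the lowest ratios the share of cells at exactly 1 UMI among those with any ran from 71.8% for Rpl10-ps1 to 99.9% for Sap18b. A column of the deposited table that counts ambiguous UMIs holds 5 for Gm10221 and 0 for Sap18b over the whole library, beside 1604 and 1516 counted UMIs. Over the 303 genes with a ratio of at most 0.8 the ambiguous UMIs came to 1.474% of the counted ones, with 143 (6.19%) for Gm11263, against 0.4698% for genes between 0.8 and 1.5 and 0.1602% for those at 1.5 or above. How the authors' pipeline gave UMIs to genes that share sequence was not tested, and the levels of such genes are uncertain.

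The identical stretch is shown for the pair with the lowest ratio, as bases 1 to 120 of Gm10221 (chr5:24581743-24581862, minus strand) and bases 82 to 201 of the Atp5l transcript (GENCODE M21, GRCm38). No letter is in capitals because no base differs.
Gm10221: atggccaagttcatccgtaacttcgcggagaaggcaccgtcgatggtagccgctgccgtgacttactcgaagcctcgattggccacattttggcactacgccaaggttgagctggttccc
Atp5l: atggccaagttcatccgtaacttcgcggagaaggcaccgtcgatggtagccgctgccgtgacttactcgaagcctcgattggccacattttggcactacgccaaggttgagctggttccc

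**Figure D5:**
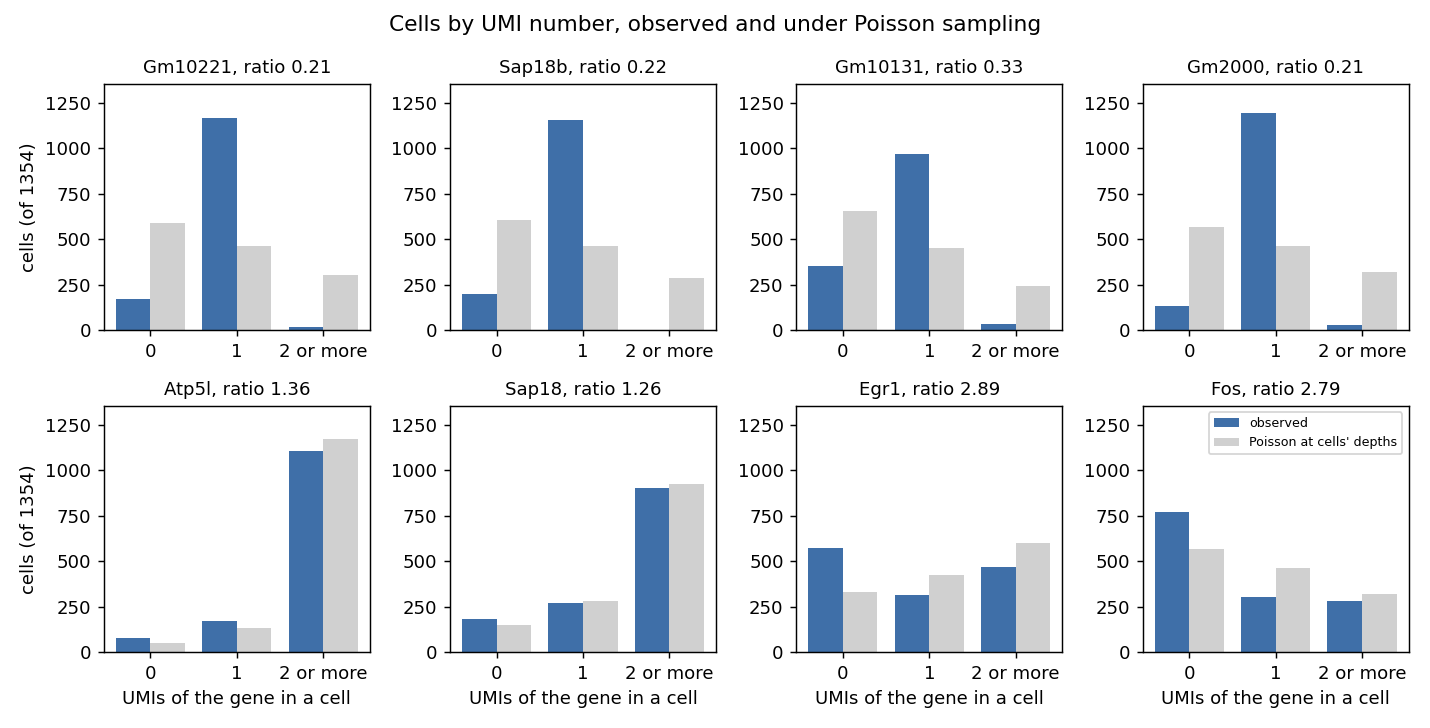
Number of the 1354 wild-type ES cells with 0, 1 and 2 or more UMIs of a gene (blue, observed) and under Poisson sampling at the cells' depths (grey), with the variance ratio above each panel. Gm10221, Sap18b, Gm10131 and Gm2000 stood at 1 UMI in most cells. Atp5l, which shares sequence with Gm10221, had 78 cells at 0 where Poisson sampling gives 49.28. Sap18, which shares sequence with Sap18b, had 182 where it gives 147.0. Egr1 and Fos also had more cells at 0 than Poisson sampling gives.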

How the data were processed

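Single-cell RNA-seq of 1 wild-type library was used, with raw UMI counts per gene and barcode as deposited. By the methods the authors made the matrix with a published inDrop pipeline, and the submitters' processing notes name mm10 and Seurat 2.3.4; the aligner and the use of strand in counting are not given in the sources used here. Gene identifiers were matched to GENCODE M21 (54079 of 54146 without version, 52480 with it), and the table's own sum of ambiguous UMIs over genes, 63462, was not added to the counts. The knockout library, bulk data and repeat elements were not used here.

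The members, gene lists, cell markers and alternatives were chosen with earlier results of these data known, and the limit of 0.8, the subset by shared sequence, the pairs of genes and the groups of cells by histone level after the values were seen. Counts were summed over cells as CPM. The variance ratio, excess CV and residuals (UMIs less the number given by the cell's depth, over its square root) used each cell's total UMIs. Shared sequence was the percentage of a gene's 31-base words, read on the sense strand, in annotated transcripts of any other gene. Sequence shared with the opposite strand of another gene is therefore not counted. Genes were named from the 20 most abundant with and without mitochondrial and RP genes, the 20 with the largest excess CV and the 15 with the largest ratio among those with 500 UMIs, the cell type markers, up to 4 members of each list by ratio with its most abundant, and the 3 nearest in r to the 5 largest ratios; the other genes named were chosen after their values were seen. In simulated counts 0 of 6198 genes without spread, 16 of 100 with a CV of 0.5 and 46 of 100 with a CV of 1 reached a ratio of 1.5. Doublets were kept, and Scrublet marked 21 of the 1354 cells. Alternatives were other limits on cells and genes, thinning to 2000 UMIs, other denominators and the removal of marked doublets. Scanpy 1.11.5 ran Scrublet, matplotlib 3.10.9 drew the plots, and the rest used numpy 2.4.6 and scipy 1.17.1 under Python 3.11.15.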

Additional observations from a re-analysis of the deposited data

How the results depend on the processing

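No paired analysis was possible because each group has 1 library. The share of UMIs on the 20 most abundant genes was 9.342% at a minimum of 5000 UMIs, 9.204% under the limits of the methods alone, 9.457% with equal weight for each cell and 10.49% with mitochondrial and RP UMIs out of the denominator; without mitochondrial and RP genes the 4 values were 9.332%, 9.152%, 9.446% and 10.48%. The count of 189 genes with a ratio of at least 1.5 became 656 of 7367 under the limits of the methods alone, 31 of 2578 after thinning to 2000 UMIs, 1934 by an excess CV of at least 0.5 and 66 of 4621 among protein coding genes with little shared sequence. The count of 303 of 6398 genes with a ratio of at most 0.8 became 72 of 2578 after thinning, 135 of 1714 at a minimum of 1000 UMIs per gene and 1 of 4621 in that protein coding set. Thinning leaves fewer UMIs per gene, and the higher gene minimum leaves fewer genes. The protein coding set also leaves fewer genes and was chosen by gene type and shared sequence. The cause of these changes was not tested. Of 377 values of 29 named ratios under 13 alternatives 362 kept their side of 1.5, 12 fell below it and 3 rose above it. Some of those kept were fixed by construction. Other minimums of UMIs per gene cannot change a ratio, and a mitochondrial limit of 10% left the same 1354 cells. After thinning Fos fell to 1.401, Pttg1 to 1.378, Ube2l6 to 1.281, Hist1h1b to 1.246, Lncenc1 to 1.217, Srp54c to 1.313, Zc3h11a to 1.223, Gm37899 to 1.203 and F3 to 1.173, F3 fell below under 3 other alternatives too (1.457 without marked doublets), and Trp53inp1 rose above under 3. Under the limits of the methods alone 6 of the 29 were over 1.5 times higher (Malat1 56.47, Gm42418 40.39, Gm26870 21.1, Rplp1 7.221, Fos 5.398, Egr1 4.846), and after thinning 20 were over 1.5 times lower. Depth limits scarce genes most, since at 200 to 500 UMIs a ratio of 1.5 needs a large spread. A detection at 2000 UMIs of 80.0% for Pou5f1 held between 79.24% and 80.43% under all limits on cells tried. It was taken only over cells with at least 2000 UMIs under every limit. A minimum of 1000 UMIs per cell and the mitochondrial limit of 10% therefore could not change it.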

Other observations

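Some further gene groups of the wild-type ES cells have not been described above. The imprinted list had 3 of 11 measured genes at a ratio of at least 1.5, Meg3, Impact and Rian, while Mest (68.23 CPM, 1.328), Ube3a (106.7 CPM, 1.317) and Snrpn (29.4 CPM, 1.292) lay below. Among enzymes of one-carbon metabolism Mat2a, which makes S-adenosylmethionine, stood at 402.7 CPM with a ratio of 1.53, the 1 of 14 measured that passed, and threonine dehydrogenase (Tdh), on which mouse ES cells are known to depend, at 441.5 CPM with 1.247. The LIF and STAT3 list had 1 of 11, Klf4, with Pim1 at 1.382 and Socs3 at 1.112. In glycolysis 1 of 14 passed, Gapdh (1.945), and the glucose transporter Slc2a3 (672.8 CPM) had 1.412. The integrated stress response (0 of 13), Nodal and BMP (0 of 7), FGF and ERK (0 of 10), WNT target (0 of 3) and keratin, annexin and S100 (0 of 6) lists had no member at 1.5, beside 2.95% over all genes measured.

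Genes with a large excess CV outside the lists included Sdc4, a syndecan of the cell surface (157.6 CPM, 0.9104), Ube2l6, an enzyme of ISG15 conjugation (108.1 CPM, 1.171), F3, tissue factor (72.07 CPM, 0.9725), and Lncenc1, a lincRNA (73.17 CPM, 1.038). Hes1, a repressor in Notch signalling, stood at 254.8 CPM with a ratio of 1.678. The lincRNAs Gm47761 (2.147) and Gm42047 (1.969) had the largest excess CV of genes with 500 UMIs, were at 0 UMIs at the median cell and reached 17 and 24, and 65.69% and 72.32% of their 31-base words occur in other genes. Zc3h11a (the entry ENSMUSG00000116275.1, excess CV 1.377), Srp54c (1.253) and, with a ratio of 5.314, Gm48309 share 100%, 96.0% and 86.2% of theirs, while Gm37899 (1.215) and Tex13b (0.9889, with a ratio of 1.421) share 2.09% and 2.06%. After thinning to 2000 UMIs Ube2l6, F3, Lncenc1, Zc3h11a, Srp54c, Gm37899 and Tex13b (1.182) had ratios under 1.5. Gm47761, Gm42047 and Gm48309 stayed above it, and no thinned ratio was taken for Sdc4 or Hes1. The pseudogene Gm29216, of which 97.19% of 31-base words lie in mt-Co1, had exactly 1 UMI in 1264 cells and 0 in 18.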
